A study of Homo sapiens with 60 samples.

Results

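The nuclear-encoded subunits of the respiratory chain were described in HepG2 cells exposed to herbal extracts. Members were chosen by gene symbol. They are protein-coding genes of the nuclear genome with a mean of at least 1 CPM (counts scaled to equal library totals) over 60 libraries. The symbols were NDUFA, NDUFAB, NDUFB, NDUFC, NDUFS or NDUFV followed by a digit, and SDHA to SDHD and CYC1. Those starting with COX4 to COX8, UQCR or ATP5 were also taken. Assembly factors such as NDUFAF4 and COX20 do not carry such a symbol. Of 60675 genes in the count table, 245 carried such a symbol, 92 of these were protein coding, and 83 reached the level. Of the 83 members, 38 belong by symbol to complex I, 4 to complex II, 10 to complex III, 11 to complex IV and 20 to complex V. The rule used only symbols and the mean level, not any difference between groups. Just inside the level lay UQCRHL at 5.13 CPM and ATP5MF-PTCD1 at 9.82 CPM, and just outside it NDUFA4L2 at 0.114 CPM and NDUFC2-KCTD14 at 0.0666 CPM. The other 153 rows with such a symbol were pseudogenes or other non-coding rows. All 83 members passed the filter on low counts and were tested.

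HepG2 is an established human liver carcinoma line, bought from ATCC, and all groups were kept for 24 h before mRNA sequencing on an MGI instrument. Water extracts of 4 herbs (Aconiti Lateralis Radix Preparata, Bupleuri Radix, Cimicifugae Rhizoma, Citri Unshius Pericarpium) and 2 formulas (Yijung-tang, Banhasasim-tang) were used at doses of 20, 100 and 500 µg/mL, and each dose has 3 libraries. Another formula, Bojungikgi-tang, had 1 library at each dose and enters no test. The vehicle group held 3 libraries, for which the labels give 0.1% DMSO. The titles of all 60 libraries, vehicle included, name the same batch, BatchB, and each holds a sample code. The first part of this code is shared by Citri Unshius Pericarpium and Cimicifugae Rhizoma, by Bupleuri Radix and Aconiti Lateralis Radix Preparata, and by Yijung-tang and Banhasasim-tang. Libraries that share it are called a set here, and the vehicle libraries stand in a set of their own. The titles do not say what the code stands for. Treatment and set therefore cannot be told apart in any comparison with vehicle, whereas doses of 1 extract lie within a set. The series text instead names 2% DMSO, and also wortmannin, which no library here is labelled with. Which DMSO level applied to these vehicle libraries could not be settled. The labels do not say that replicates came from separate cultures, so p-values measure only the spread between these libraries.

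Library totals ran from 17598646 to 30451640 counts, and members together took 0.655% to 0.882% of them. All 12 hepatocyte and HepG2 markers were present in every library, with ALB at 6587 to 10270 CPM and AFP at 3058 to 4086 CPM. Of 13 markers of other cells, KRT5 was at 0 in all 60 libraries, COL1A2 and DCN at 0 in 59, and PTPRC, a leukocyte marker, at 0 in 56, while LYZ (986 to 2994 CPM), EPCAM (130 to 160 CPM) and CD68 (31.1 to 71.1 CPM) were found in all. PTPRC had 152 reads in vehicle replicate 2.

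The respiratory chain of the inner mitochondrial membrane passes electrons from NADH (complex I) and succinate (complex II) through complexes III and IV to oxygen, and the proton gradient this builds drives ATP synthase, complex V. Complexes I, III, IV and V mix a few subunits made inside the mitochondrion from its own genome with many that are encoded in the nucleus and imported, while complex II is wholly nuclear. Hepatocytes are rich in mitochondria. The nuclear subunit genes are known targets of the transcription factors NRF1, GABP (which binds ETS motifs) and YY1, with PPARGC1A and ESRRA as upstream regulators.

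Promoters of members held motifs of these factors in the following shares. RefSeq windows of 300 bases (250 before and 50 after the gene start, build GRCh38.p14) were found for 66 members and were not found for 17. The NRF1 motif (the capitals in SDHA and NDUFA11 show its matches), searched on both strands like the others, was in 16 of the 66 windows (24.2%) against 6.98% of all 27305 genes in the table and 9.79% of its 14837 protein-coding genes. The ETS motif CCGGAAGT was in 12 (18.2%, against 4.95% and 7.15%) and the YY1 motif (the capitals in SDHB) in 8 (12.1%, against 1.46% and 2.31%). None of these 3 motifs is contained in another, and 31 members (47.0%) held at least one, against 12.3% of all genes and 17.6% of protein-coding genes. By complex the share was 37.5% of 32 in I, 3 of 3 in II, 85.7% of 7 in III, 20.0% of 10 in IV and 57.1% of 14 in V. Matches are descriptions of letters and were not tested as binding sites.

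Shown here are the windows of the 4 members that changed with dose in both Cimicifugae Rhizoma and Aconiti Lateralis Radix Preparata and held a motif. Each runs from 250 bases before to 30 after the start, 5′ to 3′ on the gene's strand, with the motif matches in capitals. SDHA (chr5:218070-218349, plus strand) held the NRF1 motif 4 times, starting at -166, -117, -68 and -19 from the gene start. SDHB (chr1:17054003-17054282, minus strand) held the YY1 motif at 11 bases after the start. NDUFS1 (chr2:206159415-206159694, minus strand) held the ETS motif in reverse at -158, and a second entry for NDUFS1 with a later start held none. NDUFA11 (chr19:5903761-5904040, minus strand) held the NRF1 motif in reverse at -98.
SDHA: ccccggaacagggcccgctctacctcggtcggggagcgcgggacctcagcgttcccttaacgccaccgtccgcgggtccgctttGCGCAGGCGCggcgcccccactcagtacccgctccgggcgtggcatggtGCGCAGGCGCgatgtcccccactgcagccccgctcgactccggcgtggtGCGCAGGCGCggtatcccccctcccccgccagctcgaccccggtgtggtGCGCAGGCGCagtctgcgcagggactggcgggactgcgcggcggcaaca
SDHB: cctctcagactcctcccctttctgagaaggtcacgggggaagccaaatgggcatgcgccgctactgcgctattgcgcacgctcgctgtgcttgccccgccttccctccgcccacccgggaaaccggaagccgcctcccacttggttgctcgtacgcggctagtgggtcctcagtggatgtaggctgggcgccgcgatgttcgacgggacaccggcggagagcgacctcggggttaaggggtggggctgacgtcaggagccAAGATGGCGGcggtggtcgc
NDUFS1: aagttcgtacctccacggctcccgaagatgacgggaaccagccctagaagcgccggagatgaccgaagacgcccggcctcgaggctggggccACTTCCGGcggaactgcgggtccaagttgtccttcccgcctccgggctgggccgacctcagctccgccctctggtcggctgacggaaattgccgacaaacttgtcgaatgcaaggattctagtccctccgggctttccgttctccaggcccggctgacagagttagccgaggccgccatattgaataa
NDUFA11: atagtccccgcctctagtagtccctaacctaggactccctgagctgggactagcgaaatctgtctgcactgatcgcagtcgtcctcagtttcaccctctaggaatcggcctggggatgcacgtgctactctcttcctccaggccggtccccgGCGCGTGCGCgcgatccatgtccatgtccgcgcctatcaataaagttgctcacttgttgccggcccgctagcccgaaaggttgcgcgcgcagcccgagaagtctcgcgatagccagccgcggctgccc

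Of the 13 dose-called members with a window, 5 held a motif, and the windows of ATP5IF1, NDUFB10 and NDUFV2 did not hold these letters.

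Steady levels came first. The most abundant member of each complex by CPM was NDUFC2 in complex I (mean 205.8 CPM, 163.2 to 245.6 over libraries), the catalytic subunit SDHA in complex II (164.7 CPM, 140.5 to 179.1), the core protein UQCRC2 in complex III (281 CPM, 258.4 to 307), COX4I1 in complex IV (174.3 CPM, 144.6 to 199.6) and ATP5F1B, the catalytic beta subunit of the F1 head, in complex V (622.1 CPM, 577.6 to 675.3). Divided by transcript length (the median over a gene's protein-coding transcripts, in kb), ATP5F1B reached 726 and ATP5F1A 502 CPM per kb. By this length these were the highest 2 levels in complex V. The lengths used were 856 and 910 bases. They are medians over all annotated protein-coding transcripts, short ones included, and not lengths of the transcripts present in these cells. Levels per length, their order and the complex medians below depend on that choice. The complex medians of level per length were 67.7 CPM per kb for I, 82.3 for II, 101 for III, 150 for IV and 125 for V.

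Complex IV subunits with alternative isoforms were almost entirely of the widely expressed form. COX4I1 stood at 243 CPM per kb while COX4I2, its lung and hypoxia-linked counterpart, had no read in any library. COX6A1 was at 200 CPM per kb with no read of the heart and muscle form COX6A2, and COX8A at 225 with no read of COX8C. COX6B1 was at 269 CPM per kb against 0.0183 for COX6B2, COX7A2 at 150 against 0.108 for the muscle form COX7A1, and COX7B at 89.3 against 0.00232 for COX7B2. NDUFA4, named as a complex I subunit but known to belong to complex IV, was at 52.0 CPM per kb against 0.0973 for NDUFA4L2. With 3 reads as the limit that a count of 0 allows, a gene without reads lay below 0.1705 CPM in the shallowest library. This limit covers counting error only.

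The question of the dose comparison was which subunits differed between 500 and 20 µg/mL of the same extract. Of 83 members, 16 were called in at least 1 of 6 extracts and 67 in none, with 11 calls higher and 14 lower, and the largest change was a log2 fold change of 0.36 (1.28-fold). Calls came from edgeR's quasi-likelihood test over 16093 genes, with Benjamini-Hochberg adjusted p under 0.05. In Aconiti Lateralis Radix Preparata, 9 members rose and 6 fell (18.1% of members, against 37.2% of all genes tested, with 19.2% higher and 18% lower). In Cimicifugae Rhizoma, 2 rose and 6 fell (9.64%, against 39.2%, with 19.5% higher and 19.7% lower). In Bupleuri Radix 1 fell (1.20%, against 18.8%), in Banhasasim-tang 1 fell (1.20%, against 15.1%), and in Citri Unshius Pericarpium (1.65% of all genes) and Yijung-tang (3.77%) no member was called. At an unadjusted p under 0.05 edgeR gave 1 member in Citri Unshius Pericarpium and 10 members in Yijung-tang, and DESeq2 also called 0 in both. Leaving out 1 library moved some counts: from 15 to 6 without Aconiti Lateralis Radix Preparata 500 µg/mL replicate 2, from 8 to 5 without Cimicifugae Rhizoma 500 µg/mL replicate 3, from 1 to 0 or 2 without Bupleuri Radix 500 µg/mL replicate 2 or 3, and from 0 to 1 or 2 without Yijung-tang 20 µg/mL replicate 2 or 500 µg/mL replicate 3. In Banhasasim-tang the count was 7 without 20 µg/mL replicate 1, 2 without 20 µg/mL replicate 3 and 0 without 20 µg/mL replicate 2 or 500 µg/mL replicate 3. Other fits gave more calls: without the filter on low counts 17 in Cimicifugae Rhizoma, 4 in Bupleuri Radix, 4 in Yijung-tang and 8 in Banhasasim-tang, and with a replicate block by set 14, 2, 3 and 7. With only the groups compared in the fit the counts were 21 in Cimicifugae Rhizoma, 2 in Bupleuri Radix and 0 in Banhasasim-tang.

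The members' share of calls lay below that of all genes in the 4 extracts with calls, as given above. Among 7227 other protein-coding genes of 20 to 600 CPM, 53.6% were called in Cimicifugae Rhizoma and 50.2% in Aconiti Lateralis Radix Preparata. The median absolute log2 fold change of these genes was 0.15 and 0.14, against 0.09 for members in both extracts. The median standard error was 0.08 for members in each of the 6 extracts and 0.05 to 0.06 for these genes. The 95% confidence interval of the dose effect lay within 1.5-fold in either direction for all 83 members in 5 extracts and for 82 in Aconiti Lateralis Radix Preparata. The median log2 fold change over members was 0.02 in Citri Unshius Pericarpium, 0.03 in Cimicifugae Rhizoma, 0.02 in Bupleuri Radix, 0.05 in Aconiti Lateralis Radix Preparata, 0.05 in Yijung-tang and -0.06 in Banhasasim-tang, against 0.00 over all genes tested in each extract.

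**Figure D1:**
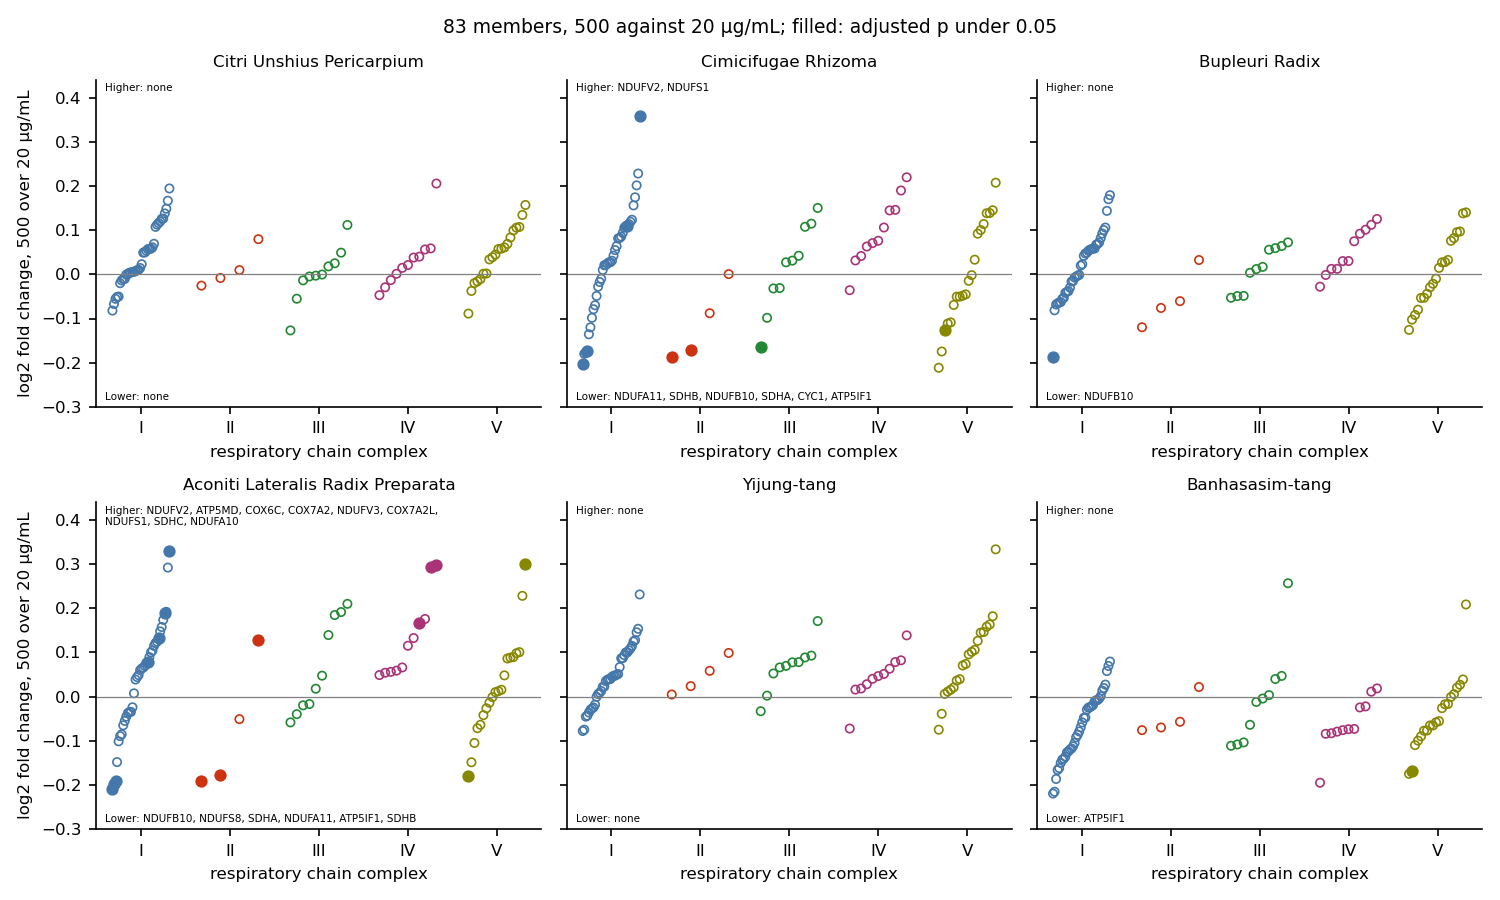
Log2 fold change between 500 and 20 µg/mL (vertical axis) for the 83 members, grouped by complex (horizontal axis) in 6 extracts. Filled points passed the adjusted p of 0.05 and are named in each panel: 15 in Aconiti Lateralis Radix Preparata, 8 in Cimicifugae Rhizoma, 1 each in Bupleuri Radix and Banhasasim-tang, and none in the other 2.

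Cimicifugae Rhizoma and Aconiti Lateralis Radix Preparata, which share no library, had 7 called members in common, all in the same direction: NDUFV2 and NDUFS1 were higher and SDHA, SDHB, ATP5IF1, NDUFB10 and NDUFA11 lower. These were 87.5% of the 8 calls in the former and 46.7% of the 15 in the latter. No member was called in opposite directions. Over all genes tested, 4226 were called in both extracts in the same direction, 66.9% of the calls in Cimicifugae Rhizoma and 70.6% of those in Aconiti Lateralis Radix Preparata, and 59 in opposite directions. Nothing particular to the members is read from their overlap. In both extracts the members called higher had lower GC content than those called lower (median 44.4% against 56.8%, and 44.9% against 56.8%). With the GC trend of each library removed, all 8 and all 15 calls remained. With GC and length trends removed, SDHC in Aconiti Lateralis Radix Preparata was not called. Of 10 other settings, calls in that extract stood in 6 for SDHC, 7 for NDUFA10 and 9 for NDUFS1. In Cimicifugae Rhizoma they stood in 8 for ATP5IF1 and 9 for NDUFS1.

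Complex I carries the NADH-oxidising N module at its tip, whose core is NDUFV1, NDUFV2 and NDUFS1. NDUFV2 (ENSG00000178127), an iron-sulfur subunit of this module, read 128, 117 and 121 CPM at 500 µg/mL of Cimicifugae Rhizoma and 92.1, 95.9 and 95.9 CPM at 20. The groups did not overlap, and the log2 fold change was 0.36 (SE 0.07, edgeR adjusted p = 4.09e-05). At 100 µg/mL the libraries of this extract lay at 99.4, 100 and 101 CPM, between the other 2 doses. In Aconiti Lateralis Radix Preparata NDUFV2 read 117, 124 and 104 CPM at 500 and 84.8, 96.4 and 91.8 CPM at 20 µg/mL, again without overlap (log2 fold change 0.33, SE 0.07, edgeR adjusted p = 0.000137). In Bupleuri Radix all 3 libraries at 500 (109, 99.7 and 106 CPM) were above those at 20 (88.8, 97.3 and 93.7 CPM), but the difference did not pass (0.17, edgeR adjusted p = 0.0871). The other 3 extracts gave -0.05 to 0.06 on the log2 scale.

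NDUFS1 (ENSG00000023228), the largest N-module subunit, which holds several iron-sulfur clusters, changed less. It read 193, 212 and 195 CPM at 500 and 185, 182 and 178 CPM at 20 µg/mL of Aconiti Lateralis Radix Preparata (log2 fold change 0.13, SE 0.04, edgeR adjusted p = 0.00441). In Cimicifugae Rhizoma it read 209, 195 and 214 against 188, 191 and 192 CPM (0.11, SE 0.04, adjusted p = 0.0189). The ranges were apart in both. The call in Aconiti Lateralis Radix Preparata was lost without 500 µg/mL replicate 2 and that in Cimicifugae Rhizoma without any of 500 µg/mL replicates 1 and 3 and 20 µg/mL replicate 1. NDUFV1, the flavin-binding subunit of the same module, gave -0.07 to 0.06 over the 6 extracts and was not called.

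Accessory subunits of complex I were called as well. NDUFB10, an accessory subunit of the membrane arm, read 61.6, 56.5 and 57.2 CPM at 500 and 63.9, 69.5 and 68.4 CPM at 20 µg/mL of Aconiti Lateralis Radix Preparata (log2 fold change -0.21, SE 0.06, edgeR adjusted p = 0.00203). In Bupleuri Radix, where it was the only called member, it read 58.1, 55.6 and 62.9 against 67.3, 65.9 and 67.8 CPM (-0.19, adjusted p = 0.0115; not called without 500 µg/mL replicate 2). In Cimicifugae Rhizoma it read 61.5, 58.1 and 54.7 against 65.3, 69 and 61.7 CPM (-0.17, adjusted p = 0.0122). The lower dose was thus above the higher in every library of these 3 extracts. In Yijung-tang NDUFB10 had the other sign (0.15, adjusted p = 0.12), with 68.2, 74.2 and 68.3 CPM at 500 against 59.2, 65.8 and 63.9 at 20 µg/mL.

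NDUFA11, an accessory membrane-arm subunit, read 86.9, 83.5 and 85 CPM at 500 and 94.3, 100 and 95.9 CPM at 20 µg/mL of Aconiti Lateralis Radix Preparata, and 82.5, 82.2 and 72.4 against 85.5, 94.4 and 92.2 CPM in Cimicifugae Rhizoma. The doses were apart in both, with log2 fold changes of -0.19 (edgeR adjusted p = 0.0151) and -0.20 (adjusted p = 0.0104). These calls were lost without 500 or 20 µg/mL replicate 2 in the former, and, as for NDUFB10, without 20 µg/mL replicate 2 or 500 µg/mL replicate 3 in Cimicifugae Rhizoma. All libraries held non-whole expected counts for NDUFA11 and NDUFV2, which shows that reads were shared out between genes or transcripts by the counting. A further 3 complex I members were called in Aconiti Lateralis Radix Preparata. NDUFV3, a small accessory subunit of the N module, rose from 39.5, 39.7 and 39.9 to 45.8, 46.2 and 44.2 CPM (0.19, SE 0.05, adjusted p = 0.00437). NDUFA10 rose from 111, 115 and 111 to 120, 121 and 117 CPM (0.08, adjusted p = 0.0466), and NDUFS8, an iron-sulfur subunit of the Q module, fell from 57.8, 64.7 and 59.9 to 52.9, 50.8 and 56 CPM (-0.20, adjusted p = 0.043). The calls of NDUFA10 and NDUFS8 were each lost in 4 of 6 fits that left out 1 library, among them 500 µg/mL replicates 1 and 2.

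Complex II was the only complex in which most subunits were called in 1 extract. SDHA (ENSG00000073578), the flavoprotein that oxidises succinate, read 149, 145 and 154 CPM at 500 and 168, 172 and 169 CPM at 20 µg/mL of Aconiti Lateralis Radix Preparata, with a log2 fold change of -0.19 (SE 0.03, edgeR adjusted p = 8e-06). In Cimicifugae Rhizoma it read 149, 152 and 140 against 165, 169 and 162 CPM (-0.17, SE 0.03, adjusted p = 5.46e-05). The 100 µg/mL libraries, at 156, 168 and 171 CPM and at 163, 165 and 169 CPM, were all above the 500 µg/mL libraries; the library at 156 CPM, of Aconiti Lateralis Radix Preparata, lay below the 20 µg/mL libraries of that extract. The vehicle libraries read 168, 171 and 168 CPM, and 500 µg/mL of these 2 extracts gave the lowest group means of all 19 replicated groups. In the other extracts SDHA gave -0.01 (Citri Unshius Pericarpium), -0.08 (Bupleuri Radix, adjusted p = 0.121), 0.02 (Yijung-tang) and -0.08 (Banhasasim-tang, adjusted p = 0.132). Expected counts of SDHA were not whole in 86.7% of libraries, and 3 pseudogene rows of SDHA summed to 10.9 CPM on average, so its level depends on how shared reads were divided.

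SDHB, the iron-sulfur subunit that receives electrons from SDHA, fell with it. It read 43.8, 46.3 and 44 CPM at 500 and 47.6, 53 and 50 CPM at 20 µg/mL of Aconiti Lateralis Radix Preparata (-0.18, SE 0.06, edgeR adjusted p = 0.0182), and 45.2, 45.3 and 39 against 48.7, 48.3 and 50.1 CPM in Cimicifugae Rhizoma (-0.19, SE 0.06, adjusted p = 0.0143). All counts of SDHB were whole. The call in Cimicifugae Rhizoma was lost without 500 or 20 µg/mL replicate 3, and that in Aconiti Lateralis Radix Preparata without 500 µg/mL replicates 1 or 3 or 20 µg/mL replicate 2. The 2 membrane anchors are SDHC and SDHD. SDHC read 132, 144 and 126 CPM at 500 and 122, 121 and 124 CPM at 20 µg/mL of Aconiti Lateralis Radix Preparata (0.13, adjusted p = 0.0463; called in 1 of 6 fits that left out 1 library), and 0.00 in Cimicifugae Rhizoma. SDHD gave -0.05 and -0.09 in these 2 extracts and was called in none of the 6.

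**Figure D2:**
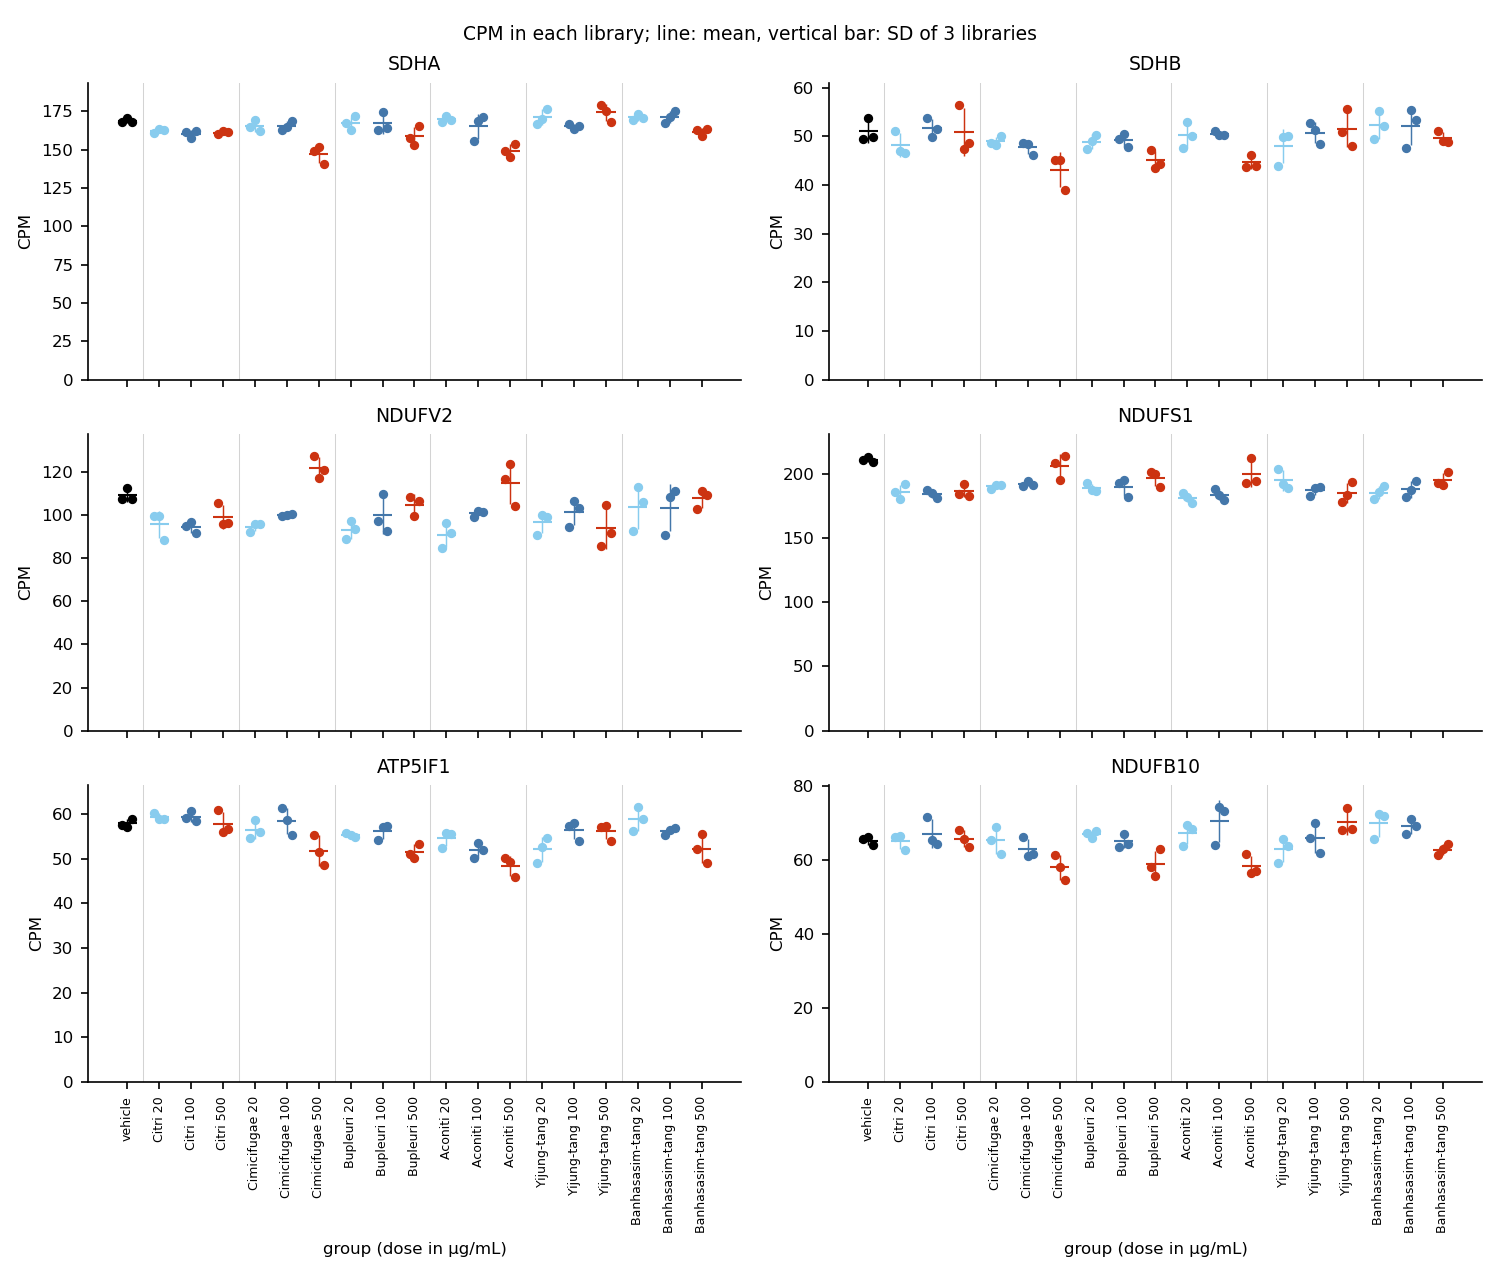
CPM in each library (points; horizontal line, mean; vertical bar, SD of 3) for SDHA, SDHB, NDUFV2, NDUFS1, ATP5IF1 and NDUFB10 in vehicle and at 20, 100 and 500 µg/mL of 6 extracts, on axes from 0. SDHA at 500 µg/mL of Cimicifugae Rhizoma and Aconiti Lateralis Radix Preparata sits at 140 to 154 CPM, below their 20 µg/mL libraries at 162 to 172 CPM.

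Complex III held a single dose call. CYC1, cytochrome c1, read 85.8, 87.2 and 83.5 CPM at 500 and 95.4, 99.4 and 91.7 CPM at 20 µg/mL of Cimicifugae Rhizoma (-0.16, SE 0.06, edgeR adjusted p = 0.0369), a call kept in 2 of 6 fits that left out 1 library and lost without 500 µg/mL replicates 1 or 3 or 20 µg/mL replicates 1 or 2. UQCRFS1, the Rieske iron-sulfur protein, gave -0.11 to 0.00 and the core proteins UQCRC1 and UQCRC2 gave -0.04 to 0.08 over the 6 extracts, none called.

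In complex IV 3 members rose in Aconiti Lateralis Radix Preparata, and all 11 had log2 fold changes above 0 (median 0.12). COX6C, a nuclear accessory subunit, read 45.5, 53.3 and 43.7 CPM at 500 and 37.5, 41.4 and 36.4 CPM at 20 µg/mL (0.30, SE 0.09, edgeR adjusted p = 0.00793). COX7A2 read 69.2, 77.7 and 61.8 against 52.7, 62.5 and 54.3 CPM, which overlap (0.29, SE 0.10, adjusted p = 0.0218). COX7A2L, a supercomplex assembly factor that carries a subunit's name, read 87.3, 90.7 and 84.4 against 77.7, 77.3 and 77.5 CPM (0.17, SE 0.05, adjusted p = 0.00994). Without 500 µg/mL replicate 2, the highest library for each of these 3 genes, none of them was called; COX7A2 was also not called without 20 µg/mL replicates 1 or 3. That library also had the highest summed level of members at this dose (7971 CPM, against 7608 and 7329 CPM). In the other 5 extracts no complex IV member was called, but signs above 0 were not limited to Aconiti Lateralis Radix Preparata. Counted over all 6 extracts, COX4I1 was above 0 in 6 (0.01 to 0.15). COX5B, COX6B1, COX7A2, COX7B and COX8A were above 0 in 5, COX6A1, COX6C, COX7A2L and COX7C in 4, and COX5A in 3.

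Complex V had 2 called members between 500 and 20 µg/mL, neither of them in the F1 head. ATP5IF1 (ENSG00000130770), the inhibitor that blocks ATP hydrolysis by the synthase when the membrane potential is lost, was lower at 500 µg/mL in 3 extracts. It read 50.1, 49.4 and 45.9 CPM at 500 and 52.5, 55.8 and 55.6 CPM at 20 µg/mL of Aconiti Lateralis Radix Preparata (-0.18, SE 0.05, edgeR adjusted p = 0.00195). In Banhasasim-tang, where it was the only called member, it read 52.2, 55.6 and 49.1 against 56.2, 61.6 and 59 CPM (-0.17, SE 0.05, adjusted p = 0.00823). In Cimicifugae Rhizoma the doses overlapped, with 55.4, 51.6 and 48.5 against 54.7, 58.7 and 55.9 CPM (-0.13, adjusted p = 0.0327). The call in Banhasasim-tang was lost without 20 µg/mL replicate 2 or 500 µg/mL replicate 3, and that in Cimicifugae Rhizoma without 500 or 20 µg/mL replicate 2 or 500 µg/mL replicate 3. ATP5MD, a small subunit of the membrane part, rose from 29.9, 34.2 and 28.4 to 37.8, 40.1 and 36.5 CPM in Aconiti Lateralis Radix Preparata (0.30, SE 0.10, adjusted p = 0.0196; lost without 500 µg/mL replicate 2 or 20 µg/mL replicates 1 or 3).

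The F1 subunits ATP5F1A to ATP5F1E were called in no extract. The widest change among them was that of ATP5F1D, the delta subunit, in Yijung-tang (0.33, SE 0.12, edgeR adjusted p = 0.11), with 65.6, 68.8 and 59.6 CPM at 500 against 45.1, 55.4 and 53 CPM at 20 µg/mL. ATP5F1B gave -0.08 to 0.04. The c-ring genes ATP5MC1, ATP5MC2 and ATP5MC3, which encode 1 identical mature proton-carrying protein, gave -0.17 to 0.18, none called. At 100 against 20 µg/mL 1 member was called over the 6 extracts: ATP5MG, a membrane-part subunit, in Cimicifugae Rhizoma (148, 119 and 128 against 101, 112 and 101 CPM; 0.33, SE 0.09, adjusted p = 0.0353). The share of all genes called at that dose was 1.29% there, 5.68% in Aconiti Lateralis Radix Preparata, 1.24% in Yijung-tang, 0.162% in Bupleuri Radix, 0.0249% in Citri Unshius Pericarpium and 0.0124% in Banhasasim-tang. The ATP5MG call was lost without 100 or 20 µg/mL replicates 1 or 3, and its 500 µg/mL libraries read 121, 116 and 100 CPM.

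Dose effects of extracts of the same set were compared through an interaction term in edgeR. For Citri Unshius Pericarpium minus Cimicifugae Rhizoma, 4 members differed (4.82% of members, against 28.2% of all genes): SDHA by 0.16 (adjusted p = 0.00805), SDHB by 0.27 (0.0179), NDUFB1 by 0.37 (0.0468) and NDUFV2 by -0.31 (0.0171). For Yijung-tang minus Banhasasim-tang, 6 members differed (7.23%, against 12.1%): ATP5IF1 by 0.27 (0.00279), NDUFB10 by 0.30 (0.00484), NDUFA11 by 0.29 (0.0239), ATP5MC2 by 0.36 (0.0279), NDUFS8 by 0.32 (0.0496) and NDUFS1 by -0.16 (0.0445). For Bupleuri Radix minus Aconiti Lateralis Radix Preparata no member differed by edgeR (10.2% of all genes, 1 member at an unadjusted p under 0.05) or by DESeq2. The count of 4 fell to 1 without Cimicifugae Rhizoma 500 µg/mL replicate 3 and to 2 without Citri Unshius Pericarpium 500 µg/mL replicate 1 or 20 µg/mL replicates 2 or 3. The count of 6 fell to 2 without Yijung-tang 20 µg/mL replicate 1, Yijung-tang 500 µg/mL replicate 2 or Banhasasim-tang 20 µg/mL replicate 2, and to 3 without Banhasasim-tang 500 µg/mL replicates 1 or 2. With the GC trend of each library removed, 2 members differed between Yijung-tang and Banhasasim-tang.

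Libraries of 1 group did not hold members at the same summed level. The 83 members summed to 8263 ± 106 CPM (SD, n = 3) in vehicle and to group means of 7376 to 7853 CPM in the 4 herbs and 7417 to 8105 CPM in Yijung-tang and Banhasasim-tang. The lowest library was Yijung-tang 20 µg/mL replicate 1 (6716 CPM) and the highest Banhasasim-tang 20 µg/mL replicate 2 (8682 CPM). Across 60 libraries the summed level went with that of cytosolic ribosomal protein genes (Pearson r = 0.915, Spearman rho = 0.864, and r = 0.886 without the 2 libraries farthest from the median), and over 57 libraries taken as deviations from their group means r was 0.966. With mitochondrial ribosomal protein genes r was 0.795 across libraries and 0.952 within groups, and with the subunits of the mitochondrial genome -0.0808 and -0.0765. Complex I went with complexes II, III, IV and V at r of 0.644, 0.916, 0.953 and 0.934 across libraries and 0.864, 0.964, 0.963 and 0.952 within groups. Replicate 1 had the lowest sum in all 6 groups of Yijung-tang and Banhasasim-tang, in 3 of 6 groups of the set of Bupleuri Radix and in 1 of 6 of the set of Citri Unshius Pericarpium. These values describe libraries that share treatment sets and a total, and no p is given. What moves these sums together within groups was not tested.

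**Figure D3:**
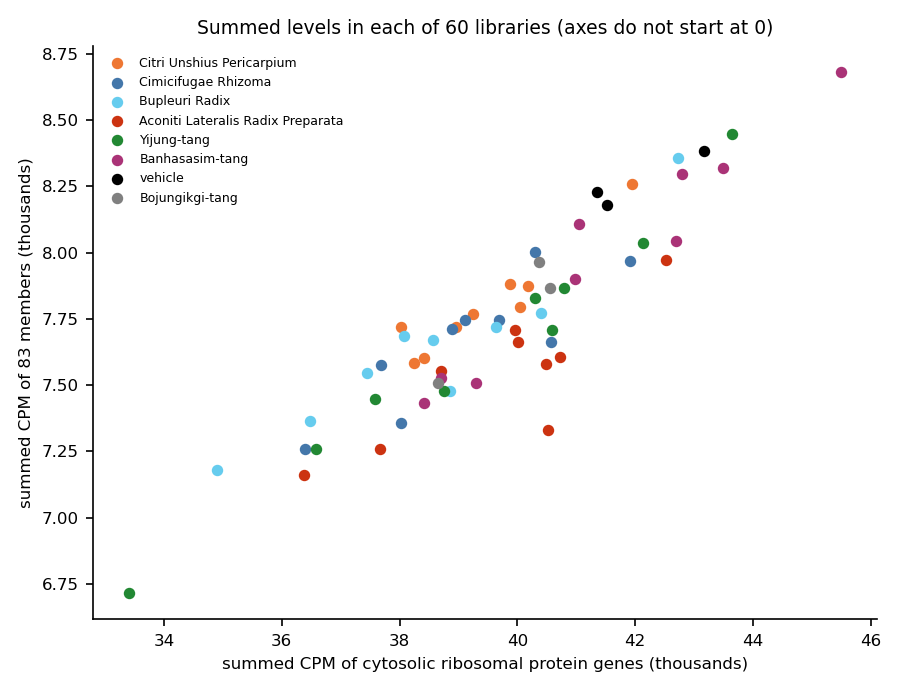
Summed CPM of the 83 members (vertical axis) against that of cytosolic ribosomal protein genes (horizontal axis) in each of 60 libraries, coloured by extract, on axes that do not start at 0. The points run from Yijung-tang 20 µg/mL replicate 1 at 6716 CPM to Banhasasim-tang 20 µg/mL replicate 2 at 8682 CPM, and r is 0.915.

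The mitochondrial genome encodes the remaining subunits. Of its 13 protein genes, 6 fell and 1 rose at 500 against 20 µg/mL of Aconiti Lateralis Radix Preparata, where 37.2% of all genes tested were called. The complex I genes MT-ND4, MT-ND4L and MT-ND3 fell by 0.90, 0.73 and 0.51 on the log2 scale (edgeR adjusted p = 4.77e-07, 8.72e-09 and 0.00875), and the complex IV genes MT-CO1, MT-CO2 and MT-CO3 by 0.27, 0.44 and 0.45, while MT-ND5 rose by 0.57. In Yijung-tang MT-CO2 rose by 0.34 (adjusted p = 0.0226; called in 2 of 6 fits that left out 1 library), and in the other 4 extracts none passed. The mitochondrial ribosomal RNA MT-RNR1 rose in all 6 extracts, by 2.77 in Aconiti Lateralis Radix Preparata and 0.35 to 0.73 in the others, and MT-RNR2 rose in 5, by 1.88 in Aconiti Lateralis Radix Preparata. MT-CO1 in Aconiti Lateralis Radix Preparata and MT-RNR2 in Cimicifugae Rhizoma were called in 3 of 6 fits that left out 1 library. In Aconiti Lateralis Radix Preparata 7 of 9 tested genes of a list of RNA quality signs rose, and 4 of 9 in Cimicifugae Rhizoma. In the former, RMRP, RPPH1 and RN7SL1 rose by 2.67, 1.90 and 1.59, each called in 5 of 6 fits that left out 1 library. The calls of HIST1H2AC and HIST1H2BC in that extract stood in 2 of 6 such fits. Of 12 hepatocyte markers, 1 rose and 8 fell in Aconiti Lateralis Radix Preparata and 2 rose and 7 fell in Cimicifugae Rhizoma. Of 7 tested markers of other cells, 2 rose and 2 fell in each of these extracts. Beside these counts, 37.2% of all genes tested were called in Aconiti Lateralis Radix Preparata and 39.2% in Cimicifugae Rhizoma. LYZ, a macrophage marker that HepG2 libraries held throughout, rose by 1.31 in Cimicifugae Rhizoma, 0.90 in Aconiti Lateralis Radix Preparata, 0.89 in Bupleuri Radix and 0.59 in Banhasasim-tang. CD68, another macrophage marker, rose by 0.43 in Cimicifugae Rhizoma and 0.50 in Aconiti Lateralis Radix Preparata, and the endothelial PECAM1 fell by 1.06 and 0.49. The part of these in the change of mitochondrial transcripts and of members was not tested.

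Several known regulators of these genes changed with dose. PPARGC1A, a coactivator of mitochondrial biogenesis, rose by 0.67 in Cimicifugae Rhizoma (edgeR adjusted p = 2.74e-13), 0.38 in Aconiti Lateralis Radix Preparata, 0.35 in Bupleuri Radix, 0.23 in Banhasasim-tang and 0.22 in Yijung-tang. ESRRA, its nuclear receptor partner, rose by 0.37 in both Cimicifugae Rhizoma and Aconiti Lateralis Radix Preparata. NRF1 fell by 0.46 in Cimicifugae Rhizoma, 0.47 in Aconiti Lateralis Radix Preparata and 0.23 in Bupleuri Radix. The DNA-binding GABPA fell by 0.18, 0.13 and 0.18 and the mitochondrial transcription factor TFAM by 0.36, 0.11 and 0.16 in the same 3 extracts, and YY1 fell by 0.19 and 0.20 in the first 2. Of the 16 regulators tested, 2 rose and 7 fell in Cimicifugae Rhizoma, 3 rose and 4 fell in Aconiti Lateralis Radix Preparata, 1 rose and 3 fell in Bupleuri Radix, 2 rose in Banhasasim-tang, 1 rose in Yijung-tang and none passed in Citri Unshius Pericarpium. In the same order, 39.2%, 37.2%, 18.8%, 15.1%, 3.77% and 1.65% of all genes tested were called. The calls of GABPA and TFAM in Aconiti Lateralis Radix Preparata stood in 1 of 6 fits that left out 1 library, and those of NRF1 in Bupleuri Radix and PPARGC1A in Yijung-tang in 2 of 6.

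**Figure D4:**
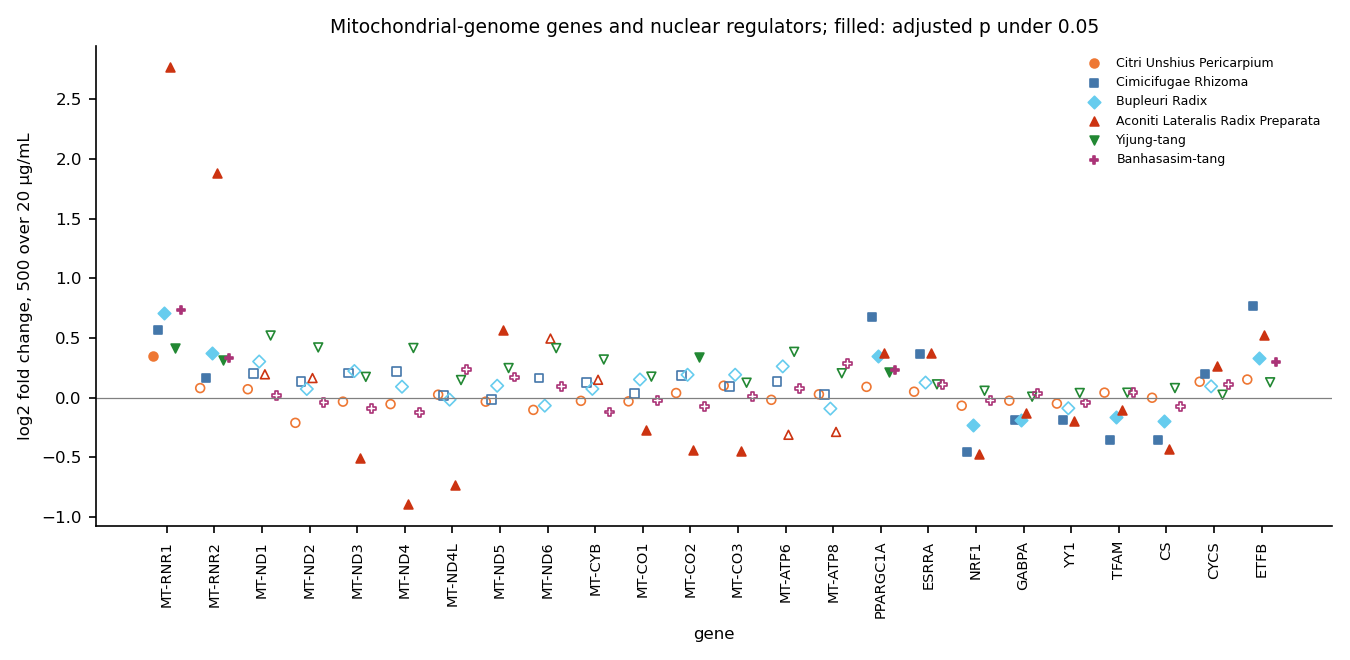
Log2 fold change between 500 and 20 µg/mL (vertical axis) for genes of the mitochondrial genome, regulators and carriers of electrons (horizontal axis), with a symbol per extract and filled where adjusted p was under 0.05. MT-RNR1 stands at 2.77 and MT-ND4 at -0.90 in Aconiti Lateralis Radix Preparata, and PPARGC1A at 0.67 in Cimicifugae Rhizoma.

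Of 61 tested factors that build the complexes, 4 rose and 11 fell in Cimicifugae Rhizoma. FOXRED1 and ACAD9, both complex I assembly factors, fell by 0.37 and 0.36 (edgeR adjusted p = 7.94e-09 and 1e-07), ATPAF1, which assembles F1, by 0.32 and COA6, a copper factor of complex IV, by 0.44. In Aconiti Lateralis Radix Preparata 9 rose and 9 fell, in Bupleuri Radix 1 rose and 4 fell, in Yijung-tang 1 rose, and in the other 2 extracts none passed. For this list and those below, the shares of all genes called were 39.2% in Cimicifugae Rhizoma, 37.2% in Aconiti Lateralis Radix Preparata and 18.8% in Bupleuri Radix. They were 15.1% in Banhasasim-tang, 3.77% in Yijung-tang and 1.65% in Citri Unshius Pericarpium. Among 18 citric acid cycle genes CS, citrate synthase, fell by 0.43 in Aconiti Lateralis Radix Preparata, 0.36 in Cimicifugae Rhizoma and 0.19 in Bupleuri Radix. Of 19 tested electron carriers and entry enzymes, 3 rose and 3 fell in Cimicifugae Rhizoma, 3 rose and 1 fell in Aconiti Lateralis Radix Preparata, 1 rose and 1 fell in Bupleuri Radix, 1 rose and 2 fell in Banhasasim-tang, 1 rose in Yijung-tang and none passed in Citri Unshius Pericarpium. COQ3 and COQ7, enzymes of coenzyme Q synthesis, fell by 0.56 and 0.25 in Cimicifugae Rhizoma, while COQ9 rose there by 0.14 (called in 2 of 6 fits that left out 1 library). COQ8A, a kinase-like protein of that pathway, fell by 0.28 in Aconiti Lateralis Radix Preparata and rose by 0.22 in Yijung-tang. COQ5 and PDSS2 fell by 0.26 and 0.21 in Banhasasim-tang. CYCS, cytochrome c, rose by 0.27 in Aconiti Lateralis Radix Preparata and 0.19 in Cimicifugae Rhizoma (called there in 2 of 6 fits that left out 1 library), and ETFB, a subunit of the electron transfer flavoprotein, rose by 0.77 in Cimicifugae Rhizoma, 0.53 in Aconiti Lateralis Radix Preparata, 0.33 in Bupleuri Radix and 0.30 in Banhasasim-tang.

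Against vehicle more members were called, mostly lower. At 500 µg/mL the counts higher and lower were 5 and 13 in Citri Unshius Pericarpium (21.7% of members, against 22.5% of all genes), 3 and 25 in Cimicifugae Rhizoma (33.7%, against 45.8%), 4 and 33 in Bupleuri Radix (44.6%, against 35.7%), 8 and 33 in Aconiti Lateralis Radix Preparata (49.4%, against 47.4%), 9 and 32 in Yijung-tang (49.4%, against 32.6%) and 7 and 24 in Banhasasim-tang (37.3%, against 34.7%). At 20 µg/mL they were 4 and 18 (26.5%, against 19.3%), 3 and 26 (34.9%, against 19%), 5 and 38 (51.8%, against 21.9%), 9 and 47 (67.5%, against 31.2%), 4 and 37 (49.4%, against 27.2%) and 10 and 9 (22.9%, against 28.4%) in the same order. The members' medians at 500 µg/mL were -0.06, -0.11, -0.13, -0.15, -0.14 and -0.07 on the log2 scale. Of all genes tested, 9.78%, 22.3%, 16.6%, 22.9%, 15.1% and 16.2% were lower at 500 µg/mL and 8.35%, 8.26%, 9.34%, 14.4%, 12.4% and 13.1% at 20 µg/mL. All of these comparisons share the 3 vehicle libraries, and set and treatment cannot be told apart in them. Single libraries moved these counts too. At 500 µg/mL the total in Yijung-tang went from 41 to 17 or 25 without its replicate 1 or 3 and to 27 or 22 without vehicle replicate 1 or 2. In Banhasasim-tang it went from 31 to 14 or 20 without replicate 1 or 3 and to 20 or 19 without vehicle replicate 1 or 2, in Citri Unshius Pericarpium from 18 to 10 without replicate 2 or 3, and in Aconiti Lateralis Radix Preparata from 41 to 26 without replicate 3. At 20 µg/mL it went from 22 to 14 or 13 without Citri Unshius Pericarpium replicate 2 or 3, from 29 to 11 without Cimicifugae Rhizoma replicate 1 and to 19 or 15 without vehicle replicate 1 or 2, and from 43 to 17 without Bupleuri Radix replicate 1 and to 28 or 25 without vehicle replicate 1 or 2. It went from 56 to 36 without Aconiti Lateralis Radix Preparata replicate 3 and from 41 to 22 without Yijung-tang replicate 1.

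Members against vehicle also ran with the GC content of their transcripts. Across the 83 members the correlation of the log2 fold change with GC content was 0.445 to 0.736 over the 12 comparisons (a description across genes, which share libraries and depth). At 500 µg/mL the members called higher had a median GC content of 55.7% to 62.7%, and those called lower 44.6% to 47.8%, against 49.9% for all 83. Of 83 cytosolic ribosomal protein genes, 13 to 30 were called lower and 1 to 4 higher. Over the 12 comparisons, 8.26% to 22.9% of all genes tested were called lower.

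**Figure D5:**
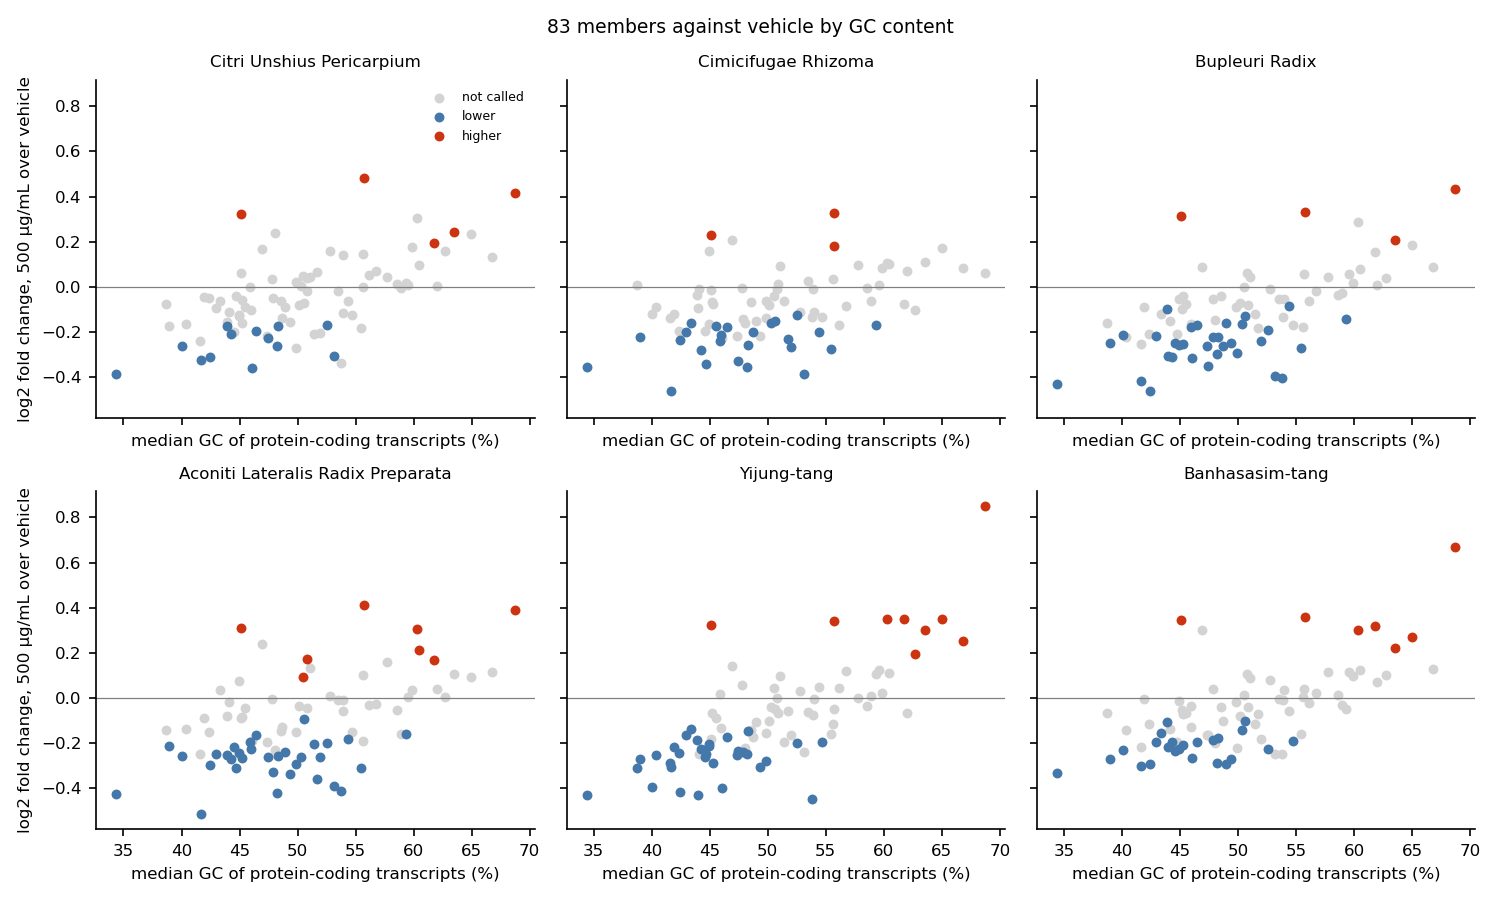
Log2 fold change of 500 µg/mL over vehicle (vertical axis) against the median GC content of a member's protein-coding transcripts in percent (horizontal axis) for 83 members in 6 extracts. Members called higher (red) lie mostly at high and members called lower (blue) mostly at low GC content, with r from 0.445 to 0.736 over the vehicle comparisons.

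Some members named here for the vehicle comparisons were chosen after their values were seen. ATP5F1A, the alpha subunit of F1, read 547, 551 and 552 CPM in vehicle and 390 to 494 CPM in the 18 libraries at 500 µg/mL, which do not overlap. Its log2 fold changes were -0.26, -0.36, -0.30, -0.42, -0.25 and -0.29 in the order given above, with edgeR adjusted p from 8.83e-11 to 3.94e-05. NDUFA5, a complex I accessory subunit with the lowest GC content among members named here (34.4%), read 70.3, 67.8 and 64.7 CPM in vehicle and 43.7 to 54.5 CPM at 500 µg/mL, with log2 fold changes of -0.33 to -0.43. ATP5PB and ATP5PO of the peripheral stalk, which holds F1 still against the rotor, gave -0.20 to -0.31 and -0.17 to -0.20. All 4 stalk genes were lower in Bupleuri Radix, Aconiti Lateralis Radix Preparata, Yijung-tang and Banhasasim-tang and 2 of 4 in the other 2 extracts. SDHD read 79.8, 79.2 and 80.4 CPM in vehicle and gave -0.15 to -0.26, called lower in all 6 extracts. Its call in Yijung-tang (-0.15, edgeR adjusted p = 0.0323) stood in 3 of 9 other settings and was lost with the GC trend removed. That call stood in 2 of 6 fits that left out 1 library, while in the other 5 extracts the call stood in all 9 settings. SDHC gave -0.10 to -0.04, called in no extract at 500 µg/mL.

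UQCRFS1 went the other way, with 81.3, 84.6 and 83.9 CPM in vehicle and 93.4 to 110 CPM at 500 µg/mL, and its GC content of 45.1% was below the members' median. Its expected counts were not whole in any library, and 3 pseudogene rows summed to 3.49 CPM on average. Its log2 fold changes were 0.23 to 0.34 at 500 µg/mL and 0.32 to 0.45 at 20 µg/mL. NDUFA7, a complex I accessory subunit, read 20.6, 23 and 23.6 CPM in vehicle and gave 0.33 to 0.48 at 500 µg/mL. ATP5F1D, with the highest GC content of the members (68.7%), gave 0.85 in Yijung-tang and 0.67 in Banhasasim-tang and was called in 5 extracts. With the GC trend of each library removed it was called at 500 µg/mL in Yijung-tang alone (0.29, adjusted p = 0.0366), and its sign turned in Aconiti Lateralis Radix Preparata (from 0.39 to -0.02). NDUFV2 at 107, 113 and 107 CPM and NDUFS1 at 211, 213 and 209 CPM in vehicle stood above the 20 µg/mL libraries of Aconiti Lateralis Radix Preparata and Cimicifugae Rhizoma. NDUFV2 was lower than vehicle at 20 µg/mL in both (-0.26 and -0.20, adjusted p = 0.00388 and 0.0377), and at 500 µg/mL it gave 0.07 and 0.16, neither called. SDHA was not called against vehicle at 20 µg/mL in any extract, and at 500 µg/mL it gave -0.20 in Cimicifugae Rhizoma, -0.18 in Aconiti Lateralis Radix Preparata and -0.09 in Bupleuri Radix (adjusted p = 3.96e-06, 1.71e-05 and 0.0408). The SDHA call in Bupleuri Radix stood in 1 of 6 fits that left out 1 library, lost without any vehicle replicate or 500 µg/mL replicate 1 or 2, and in 6 of 9 other settings.

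The single libraries of Bojungikgi-tang allow no test. Members summed to 7965, 7866 and 7506 CPM at 500, 100 and 20 µg/mL. SDHA read 170, 167 and 166 CPM, NDUFV2 104, 99 and 95.5 CPM, ATP5IF1 56.6, 56.3 and 54.3 CPM, and UQCRFS1 104, 112 and 101 CPM, in the same order. These values lay within the range of the libraries of the 6 replicated extracts.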

How the data were processed

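RNA was sequenced from HepG2 libraries with RIN above 7 (a measure of RNA integrity), using a stranded mRNA kit and 100 bp paired reads, per the labels' protocols. The deposited table holds expected counts per gene, which RSEM shares out between genes and transcripts, so 24.5% of values above 0 were not whole. FastQC 0.11.9, Trim Galore 0.6.5, STAR 2.7.3a, RSEM 1.3.3 and GRCh38 are named in the submitters' processing notes; the annotation release is not given in the sources used here. A further 207 columns of the table match no sample and were not used.

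Symbols, transcript length and GC content came from GENCODE 29, which matched 57055 genes. Expected counts were rounded and tested with edgeR 4.0.16 (quasi-likelihood, TMM scaling, R 4.3.3) over 57 libraries in 19 groups with 38 residual degrees of freedom, on 16093 genes that passed the filter on low counts. The test was also run on simulated counts drawn separately for each gene and library. These counts hold no shared movement of genes within groups, so that run does not check the calls against it. Benjamini-Hochberg adjustment ran over all genes within each comparison. CPM values by library use TMM-scaled totals (factors 0.898 to 1.04), while the rule for members and the pseudogene levels use plain totals. Totals of at least 17598646 counts set the precision, with a common biological coefficient of variation of 4.86%.

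Alternatives were median-ratio size factors, no filter, a replicate block, mitochondrial genes left out, a GC trend removed, DESeq2 1.42.0, only the groups compared, and each replicate left out. Members, lists and tests were chosen with earlier results of these data known. Named genes were, per extract, up to 3 called members in each direction whose doses did not overlap, members called most often, the most abundant of each complex, complex II, F1 subunits, ATP5IF1, complex IV isoforms, members that differed between extracts, and up to 3 called genes of each other list. Other names were chosen after their values were seen.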

Additional observations from a re-analysis of the deposited data

Results flagged for a closer look

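Dose effects (500 against 20 µg/mL) of extracts of the same set differed for 10 member and extract-pair combinations by an interaction term in edgeR. For Citri Unshius Pericarpium minus Cimicifugae Rhizoma the difference in log2 fold change was 0.37 for NDUFB1 (edgeR adjusted p = 0.0468, from 0.19 and -0.18), 0.27 for SDHB (0.0179), 0.16 for SDHA (0.00805) and -0.31 for NDUFV2 (0.0171). NDUFB1, an accessory subunit of the complex I membrane arm, kept its call in 3 of 12 fits that left out 1 library, SDHB in 9, NDUFV2 in 10 and SDHA in 11. The library without which SDHA lost its call was Cimicifugae Rhizoma 500 µg/mL replicate 3.

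For Yijung-tang minus Banhasasim-tang the difference was 0.36 for ATP5MC2 (edgeR adjusted p = 0.0279), 0.32 for NDUFS8 (0.0496), 0.30 for NDUFB10 (0.00484), 0.29 for NDUFA11 (0.0239), 0.27 for ATP5IF1 (0.00279) and -0.16 for NDUFS1 (0.0445). ATP5IF1 gave 0.11 in Yijung-tang and -0.17 in Banhasasim-tang, and NDUFB10 gave 0.15 and -0.15. Both kept their call in 12 of 12 fits that left out 1 library. ATP5MC2 kept it in 8, NDUFA11 in 7, NDUFS8 in 5 and NDUFS1 in 3. With the GC trend of each library removed, ATP5MC2, NDUFB10, NDUFA11 and NDUFS8 were not called. Across the 83 members this difference ran with GC content at r = 0.474, and the part of GC content in it was not tested further.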

How the results depend on the processing

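No other scaling moved the median of all genes by over 0.1 on the log2 scale. Counts of members called that moved by over 1.5 times follow, and the cause was not tested. Without the filter on low counts they were, for 500 against 20 µg/mL, 17 in Cimicifugae Rhizoma, 4 in Bupleuri Radix, 4 in Yijung-tang and 8 in Banhasasim-tang, for 100 against 20 µg/mL 4, 3, 1 and 3 in Cimicifugae Rhizoma, Bupleuri Radix, Aconiti Lateralis Radix Preparata and Yijung-tang, and 1 and 11 for the differences Bupleuri Radix minus Aconiti Lateralis Radix Preparata and Yijung-tang minus Banhasasim-tang. Against vehicle they were 37 (Citri Unshius Pericarpium, 500 µg/mL) and, at 20 µg/mL, 44, 44 and 29 (Citri Unshius Pericarpium, Cimicifugae Rhizoma, Banhasasim-tang). With only the groups compared in the fit they were 21 (Cimicifugae Rhizoma), 2 (Bupleuri Radix) and 0 (Banhasasim-tang) for 500 against 20 µg/mL, 3 for 100 against 20 µg/mL of Cimicifugae Rhizoma, and 7 and 1 for Citri Unshius Pericarpium minus Cimicifugae Rhizoma and Yijung-tang minus Banhasasim-tang. Against vehicle that fit gave 39, 44, 24 and 47 at 500 µg/mL (Citri Unshius Pericarpium, Cimicifugae Rhizoma, Yijung-tang, Banhasasim-tang) and 49 and 49 at 20 µg/mL (Citri Unshius Pericarpium, Cimicifugae Rhizoma). With the GC trend removed they were 2 for Yijung-tang minus Banhasasim-tang, 19 and 19 for 500 µg/mL of Yijung-tang and Banhasasim-tang against vehicle, and 19, 24 and 6 for 20 µg/mL of Cimicifugae Rhizoma, Bupleuri Radix and Banhasasim-tang. With GC and length trends removed, an alternative chosen after seeing the data, they were 4 and 2 for 500 against 20 µg/mL of Bupleuri Radix and Banhasasim-tang, 7 and 3 for the Citri Unshius Pericarpium and Yijung-tang differences, 18 and 19 for 500 µg/mL of Yijung-tang and Banhasasim-tang against vehicle, and 23 and 6 for 20 µg/mL of Bupleuri Radix and Banhasasim-tang. Median-ratio size factors, mitochondrial genes left out and DESeq2 each gave 3 for 500 against 20 µg/mL of Banhasasim-tang. The log2 fold change of ATP5F1D, 500 vs vehicle Aconiti Lateralis Radix Preparata, turned from 0.39 to -0.0188 with the GC trend removed, -0.0154 with the replicate block as well and -0.0072 with GC and length trends removed.

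In no comparison were all same-number correlations of deviations above 0.1 (-0.0419 to 0.324), and the main test used no replicate block. This check does not exclude pairing by replicate number. In Yijung-tang at 500 and 20 µg/mL the correlations were 0.113, 0.201 and -0.0357, and extracts of the same set were not compared in this way. Replicate 1 had the lowest summed level of members in all 6 groups of Yijung-tang and Banhasasim-tang. With a replicate block the count was 2 in Bupleuri Radix and 3 in Banhasasim-tang for 500 against 20 µg/mL. With the block and the GC trend removed it was 2 and 2 there, 7 for Citri Unshius Pericarpium minus Cimicifugae Rhizoma, 26 for 500 µg/mL of Yijung-tang against vehicle, and 27 and 7 for 20 µg/mL of Bupleuri Radix and Banhasasim-tang. A replicate block by set, also chosen after seeing the data, gave 14, 2, 3 and 7 for 500 against 20 µg/mL of Cimicifugae Rhizoma, Bupleuri Radix, Yijung-tang and Banhasasim-tang, 3 and 1 for 100 against 20 µg/mL of Cimicifugae Rhizoma and Yijung-tang, and 7 and 12 for the Citri Unshius Pericarpium and Yijung-tang differences.

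In the order Citri Unshius Pericarpium, Cimicifugae Rhizoma, Bupleuri Radix, Aconiti Lateralis Radix Preparata, Yijung-tang, Banhasasim-tang, leaving out 1 library gave 0 to 0, 5 to 8, 0 to 2, 6 to 16, 0 to 2 and 0 to 7 for 500 against 20 µg/mL, and 0 to 2 in Cimicifugae Rhizoma and 0 in the others for 100 against 20 µg/mL. It gave 10 to 19, 19 to 30, 25 to 33, 26 to 44, 17 to 50 and 14 to 24 for 500 µg/mL against vehicle, and 13 to 22, 11 to 24, 17 to 38, 36 to 50, 22 to 44 and 14 to 19 for 20 µg/mL. The 3 differences gave 1 to 5, 0 to 0 and 2 to 9. At this depth the 95% interval of a member's dose effect lay within 1.5-fold for at least 82 of 83 members.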

Other observations

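Genes of a list named for the mitochondrial stress response, which holds no member, changed with dose in several extracts. Whether these changes came from the mitochondria was not tested. GDF15, a secreted stress cytokine, rose at 500 against 20 µg/mL by 2.26 on the log2 scale in Aconiti Lateralis Radix Preparata, 1.96 in Cimicifugae Rhizoma, 1.13 in Bupleuri Radix and 0.98 in Banhasasim-tang (edgeR adjusted p = 6.99e-33, 2.91e-30, 1.88e-20 and 5.82e-18), and gave 0.05 in the other 2 extracts, not called. MTHFD2, a mitochondrial folate enzyme, rose by 0.87 in Aconiti Lateralis Radix Preparata and 0.25 in Cimicifugae Rhizoma, and ATF4, a transcription factor of the list, by 0.45 and 0.18. Of 9 tested genes of the list, 6 rose in Aconiti Lateralis Radix Preparata, and 4 rose and 2 fell in Cimicifugae Rhizoma. Of all genes tested, 37.2% and 39.2% were called in these 2 extracts. The shares were 18.8% in Bupleuri Radix, 15.1% in Banhasasim-tang, 3.77% in Yijung-tang and 1.65% in Citri Unshius Pericarpium. GDF15 was the 1 gene of the list that rose in Bupleuri Radix and in Banhasasim-tang, where 3 others fell in each. PHGDH and PSAT1, enzymes of serine synthesis, fell by 0.27 and 0.14 in Bupleuri Radix and by 0.23 and 0.14 in Banhasasim-tang. In Yijung-tang 2 rose, and in Citri Unshius Pericarpium 1 fell. Genes of a list of mitochondrial protein quality went both ways in Cimicifugae Rhizoma. HSPD1, HSPA9, HSPE1, LONP1 and DNAJA3 fell by 0.25, 0.20, 0.28, 0.18 and 0.19, while CLPX and CLPP rose by 0.16 and 0.23. The calls of HSPE1 and CLPP stood in 3 of 6 fits that left out 1 library. CLPX rose by 0.27 in Aconiti Lateralis Radix Preparata.

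Of 78 mitochondrial ribosomal protein genes, which translate the subunits of the mitochondrial genome, 5 rose and 14 fell in Cimicifugae Rhizoma and 9 rose and 8 fell in Aconiti Lateralis Radix Preparata. Of all genes tested, 39.2% and 37.2% were called in these extracts, in that order.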
